A study of Homo sapiens with 6 samples.

Results

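The genes described here are 10 enzymes of serine synthesis and one-carbon folate metabolism, measured in MDA-468.shp53 breast cancer cells with and without doxycycline. Members were the probe sets, control probe sets left out, whose gene symbol in the authors' workbook table was PHGDH, PSAT1 or PSPH (serine synthesis), SHMT1, MTHFD1 or ALDH1L1 (cytosolic folate enzymes), or SHMT2, MTHFD2, MTHFD1L or ALDH1L2 (mitochondrial folate enzymes). Each of the 10 symbols had 1 probe set, out of 20313 gene symbols with values on the array. The +DOX group held 3 Affymetrix gene-level arrays of cells kept for 8 days in 3D culture in the presence of doxycycline, the drug used to switch on inducible hairpins. The -DOX group held 3 arrays of the same line after the same culture without the drug, and 1 array of each group came from each of 3 independent experiments. All 6 arrays are of the line that carries the p53 hairpin, as its name says. The name of the authors' workbook table calls the line p53mut, that is, with mutant p53. The labels do not say whether the line is a clone or which promoter drives the hairpin. Cells that received the drug but carry no hairpin are not among these arrays, so effects of hairpin and drug cannot be told apart.

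Cells make serine from the glycolytic intermediate 3-phosphoglycerate through PHGDH, PSAT1 and PSPH in turn. Serine hydroxymethyltransferases then pass a carbon of serine to tetrahydrofolate, SHMT2 in mitochondria and SHMT1 in the cytosol. In mitochondria MTHFD2 and MTHFD1L carry that carbon on to formate, which leaves for the cytosol, where MTHFD1 attaches it to folate again for the synthesis of purines and thymidylate. ALDH1L1 (cytosolic) and ALDH1L2 (mitochondrial) instead oxidise the carbon of 10-formyltetrahydrofolate to carbon dioxide with the production of NADPH. Breast cancers that lack the oestrogen receptor are known for high PHGDH, often with gain of its gene.

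Arrays correlated at 0.991 to 0.997 within a group and at 0.983 to 0.991 between groups over the 28026 probe sets tested. Experiment 1 stood apart from the others along the second principal component, which held 24.0% of the variance. All 7 epithelial markers fixed for the labelled cell type (KRT7, KRT8, KRT18, KRT19, EPCAM, CDH1 and EGFR) were brighter than the median probe set, with mean log2 values of 11.05 to 13.03. KRT8 alone of these passed the test (+DOX 12.39, 12.22 and 12.18, -DOX 12.90, 12.98 and 12.79), and the 7 summed to log2 15.07 to 15.27 in +DOX and 15.31 to 15.44 in -DOX arrays. Of 5 fibroblast and 4 endothelial markers, 1 each was brighter than that median, and none passed the test, with sums of log2 9.97 to 10.08 in +DOX and 9.93 to 10.19 in -DOX arrays for fibroblasts and of 8.84 to 8.99 in +DOX and 8.85 to 9.06 in -DOX arrays for endothelium. Of 5 leukocyte markers, CD14 (+DOX 10.97, 10.35 and 10.41, -DOX 11.57, 11.08 and 11.04) and CD68 were brighter than the median, whereas PTPRC, which defines leukocytes, averaged 4.15 with and 4.23 without doxycycline. CD14 fell, though not without the pairing by experiment (adjusted p = 0.1). The summed leukocyte markers lay at log2 10.91 to 11.29 in +DOX and 11.38 to 11.79 in -DOX arrays, and the part of these marker differences in the results was not tested.

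Values are the authors' log2 RMA values, and changes are +DOX minus -DOX on that log2 scale, from limma with the experiment as a term. A gene is said to have risen or fallen where the Benjamini-Hochberg adjusted p over all 28026 probe sets was under 0.05, which held for 12.8% of them (6.14% higher and 6.63% lower with doxycycline). Of the 10 enzymes 3 rose, all mitochondrial (ALDH1L2, SHMT2 and MTHFD1L), 1 fell, the cytosolic SHMT1, and 6 did not pass. The median change of the 10 was 0.20, beside -0.01 over all tested probe sets. Higher values with doxycycline in all 3 experiments were seen for 7 of the 10, beside 19.6% of all probe sets, and lower values in all 3 for SHMT1 and MTHFD1, beside 23.0% of all probe sets. In these bulk samples, fewer cells of a type and less RNA per cell cannot be told apart.

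**Figure D1:**
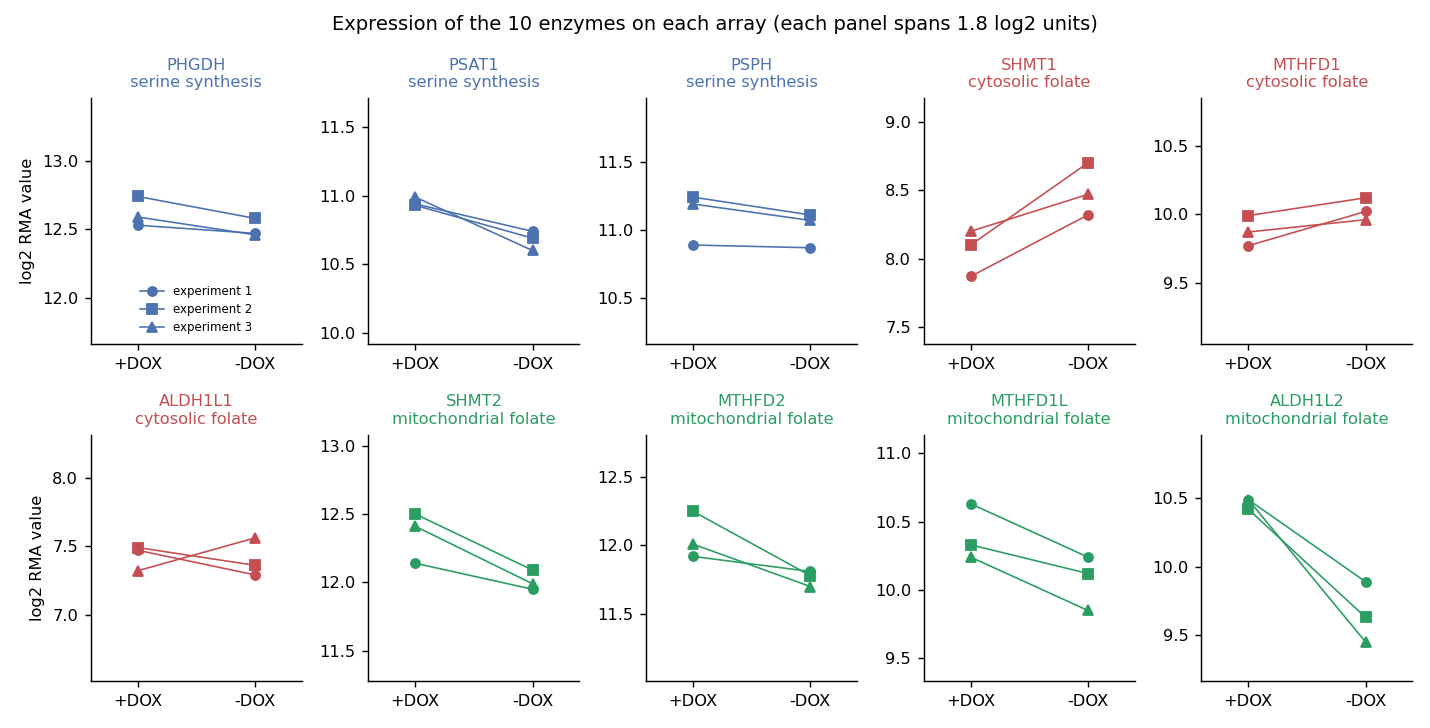
Log2 RMA value of each enzyme (vertical axis, 1.8 log2 units in every panel) on the +DOX and -DOX array of each experiment, with a line joining the arrays of an experiment. All 4 mitochondrial enzymes had every +DOX array above every -DOX array, SHMT1 had every +DOX array below, and ALDH1L1 had lines crossing in opposite directions.

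ALDH1L2, the mitochondrial 10-formyltetrahydrofolate dehydrogenase, changed most among the 10. Its probe set of 25 probes lies on the minus strand of chr12:103942332-104002366 (NCBI build 36, as in the file, here and for each probe set). Its log2 values were 10.49, 10.42 and 10.49 in +DOX arrays and 9.89, 9.63 and 9.45 in -DOX arrays of experiments 1, 2 and 3. The groups did not overlap and were 0.54 apart at their nearest arrays. The +DOX arrays lay close together (SD 0.04), whereas the -DOX arrays were spread more widely (SD 0.22), so the difference was 0.60 in experiment 1, 0.79 in experiment 2 and 1.04 in experiment 3. It rose 1.76-fold (log2 change 0.81, SE 0.10, 95% interval 0.57 to 1.05, n = 3 each, limma adjusted p = 0.00353). That change stood at percentile 99.3 of all tested probe sets. The call held in all 9 limma alternatives (adjusted p = 0.000502 to 0.0269), those without any 1 experiment included.

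SHMT2, the mitochondrial serine hydroxymethyltransferase that makes glycine and 5,10-methylenetetrahydrofolate from serine, is covered by 34 probes at chr12:55909761-55914981 (plus strand). Its log2 values were 12.14, 12.50 and 12.41 in +DOX arrays and 11.95, 12.09 and 11.99 in -DOX arrays. The lowest +DOX array, that of experiment 1, was 0.06 above the highest -DOX array. SHMT2 rose 1.27-fold (log2 change 0.34, SE 0.09, 95% interval 0.13 to 0.55, n = 3 each, limma adjusted p = 0.0476). This call was close to the threshold and was lost without the pairing by experiment (adjusted p = 0.103) and with experiment 1, 2 or 3 left out (adjusted p = 0.0581, 0.227 and 0.185). The change itself was positive in each experiment, at 0.19, 0.41 and 0.42.

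MTHFD1L, the mitochondrial formyltetrahydrofolate synthetase that releases formate, has 34 probes at chr6:151228378-151464716 (plus strand). It measured 10.63, 10.33 and 10.24 in +DOX arrays and 10.24, 10.12 and 9.85 in -DOX arrays. The experiments differed from each other as much as the groups did, with experiment 1 highest in both groups, and the lowest +DOX array was 0.01 above the highest -DOX array. MTHFD1L rose 1.26-fold (log2 change 0.33, SE 0.087, 95% interval 0.13 to 0.53, n = 3 each, limma adjusted p = 0.0469). Without the pairing by experiment the adjusted p was 0.214, and without experiment 1, 2 or 3 it was 0.174, 0.0958 and 0.173.

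MTHFD2, the mitochondrial methylenetetrahydrofolate dehydrogenase and cyclohydrolase, has 31 probes at chr2:74279198-74295933 (plus strand). Its values were 11.92, 12.25 and 12.01 in +DOX arrays and 11.81, 11.78 and 11.70 in -DOX arrays. The groups did not overlap, with the nearest arrays 0.12 apart. The difference of 0.30 (SE 0.096, 95% interval 0.07 to 0.52) did not pass (limma adjusted p = 0.0925), and it ranged over the experiments between 0.12 in experiment 1 and 0.47 in experiment 2. It passed with a trended and robust variance (adjusted p = 0.0433) and where the dimmer part of the probe sets was not tested (adjusted p = 0.0462). RefSeq lists 7 pseudogenes named after MTHFD2, and 1 each named after SHMT1, MTHFD1 and PSPH. The probes of these genes may also read similar sequences, which was not tested.

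In all 4 mitochondrial enzymes, then, the +DOX arrays lay above the -DOX arrays, a pattern that 11.4% of all probe sets showed.

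Among the cytosolic enzymes SHMT1 fell. It is the counterpart of SHMT2 and supplies methylenetetrahydrofolate for thymidylate synthesis in the cytosol, and its 31 probes lie at chr17:18171912-18207581 (minus strand). Its values were 7.87, 8.10 and 8.20 in +DOX arrays and 8.32, 8.70 and 8.47 in -DOX arrays. No +DOX array reached the lowest -DOX array, and the nearest arrays were 0.12 apart. The change was -0.44 (SE 0.094, 95% interval -0.65 to -0.22, n = 3 each, limma adjusted p = 0.0235), which is 1.35-fold. The call was lost without the pairing by experiment (adjusted p = 0.0803), without experiment 1 (0.0835) and without experiment 2 (0.139), and held without experiment 3 (0.0484).

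MTHFD1, the trifunctional cytosolic enzyme that takes up formate and interconverts the folate forms, has 20 probes at chr14:63924821-63996476 (plus strand). It measured 9.77, 9.99 and 9.87 in +DOX arrays and 10.02, 10.12 and 9.96 in -DOX arrays. The +DOX array was the lower one in each experiment, but the groups overlapped slightly, and the difference of -0.16 (SE 0.085, 95% interval -0.36 to 0.04) did not pass (limma adjusted p = 0.324).

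ALDH1L1, the cytosolic counterpart of ALDH1L2, has 34 probes at chr3:127305098-127382719 (minus strand). It measured 7.47, 7.49 and 7.32 in +DOX arrays and 7.29, 7.36 and 7.56 in -DOX arrays. The groups overlapped fully, and the sign of the difference in experiment 3 was opposite to that of the others. The mean difference was 0.02 (95% interval -0.23 to 0.27, limma adjusted p = 0.963). ALDH1L1 was the 1 enzyme of the 10 dimmer than the median tested probe set, so little can be read from its level.

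**Figure D2:**
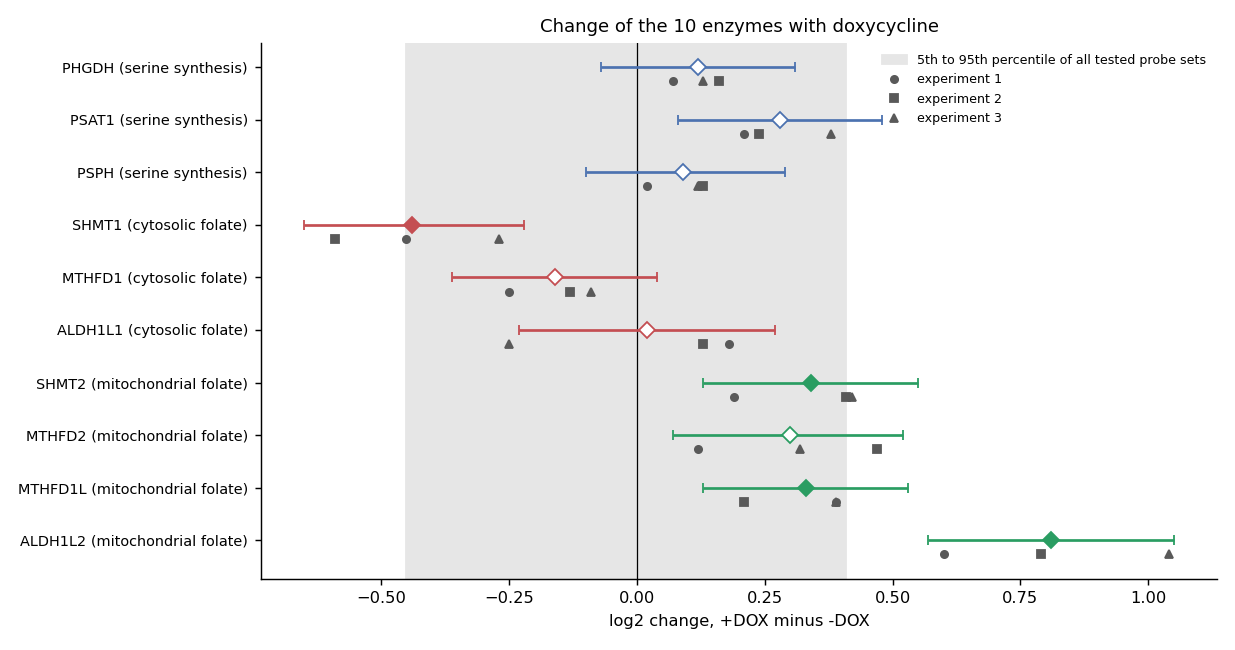
Log2 change (+DOX minus -DOX) of each enzyme, with diamonds and bars for the limma estimate and its 95% interval (filled where the adjusted p was under 0.05) and grey symbols below for each experiment. The intervals are not adjusted for the number of tests. ALDH1L2 lies at 0.81, well to the right of the band between the 5th and 95th percentiles of all tested probe sets (-0.45 to 0.41), and SHMT1 lies at -0.44, near the left edge of that band.

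Serine synthesis enzymes did not pass. PHGDH, the dehydrogenase that commits 3-phosphoglycerate to serine, has 34 probes at chr1:120056033-120088361 (plus strand). It measured 12.53, 12.74 and 12.59 in +DOX arrays and 12.47, 12.58 and 12.46 in -DOX arrays. The difference was small and the groups overlapped (log2 difference 0.12, SE 0.082, 95% interval -0.07 to 0.31, limma adjusted p = 0.484). PHGDH was bright on each array, at percentile 99.4 of the mean values of the tested probe sets.

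PSAT1, the aminotransferase of the middle step, has 15 probes at chr9:80101879-80134829 (plus strand). Its values were 10.94, 10.93 and 10.99 in +DOX arrays and 10.74, 10.69 and 10.60 in -DOX arrays. The groups did not overlap, with a gap of 0.19, and the difference was 0.28 (SE 0.085, 95% interval 0.08 to 0.48). It did not pass (limma adjusted p = 0.0821), except where the dimmer part of the probe sets was not tested (0.0452). RefSeq lists 4 pseudogenes named after PSAT1.

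PSPH, the phosphatase that releases serine, has 20 probes at chr7:56046238-56086762 (minus strand). It measured 10.89, 11.24 and 11.19 in +DOX arrays and 10.87, 11.11 and 11.07 in -DOX arrays. Experiment 1 was low in both groups, the groups overlapped, and the difference of 0.09 (95% interval -0.10 to 0.29) did not pass (limma adjusted p = 0.621). The intervals of these 3 enzymes leave room for differences of up to 0.31, 0.48 and 0.29 for PHGDH, PSAT1 and PSPH, so they do not show that the genes were alike with and without doxycycline.

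The compartments were then set against each other within each experiment. The mean change of the 4 mitochondrial enzymes was 0.33, 0.47 and 0.54 in experiments 1, 2 and 3, and that of the 3 cytosolic enzymes was -0.18, -0.20 and -0.20. These means cover unlike enzymes. Of the cytosolic ones SHMT1 alone passed, and the dim ALDH1L1 changed by 0.18, 0.13 and -0.25. Among the mitochondrial ones ALDH1L2 changed by 0.81 and the others by 0.30 to 0.34. The difference between the compartments was 0.50, 0.67 and 0.74 (0.64 ± 0.12, SD, n = 3). It is given as a description, since the enzymes were chosen with earlier results of these data known. The serine synthesis enzymes lay between them, with mean differences of 0.10, 0.18 and 0.21.

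Matched enzymes of the compartments were also compared one by one. The change of SHMT2 exceeded that of SHMT1 by 0.64, 1.01 and 0.68 in experiments 1, 2 and 3 (0.78 ± 0.20, SD, n = 3). For ALDH1L2 over ALDH1L1 the difference was 0.43, 0.66 and 1.29 (0.79 ± 0.44), the last with the dim ALDH1L1 at -0.25. For MTHFD1L over MTHFD1 it was 0.65, 0.34 and 0.48 (0.49 ± 0.16), and for MTHFD2 over MTHFD1 it was 0.37, 0.60 and 0.40 (0.46 ± 0.12). The mitochondrial enzyme had the higher change in 3 of 3 experiments for each of the 4 pairs, of which the last 2 share MTHFD1. An exact two-sided sign-flip test gave p = 0.25 for each pair (0.25 adjusted over the 4), the smallest value this test can give with 3 experiments, so it cannot place these differences under 0.05.

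**Figure D3:**
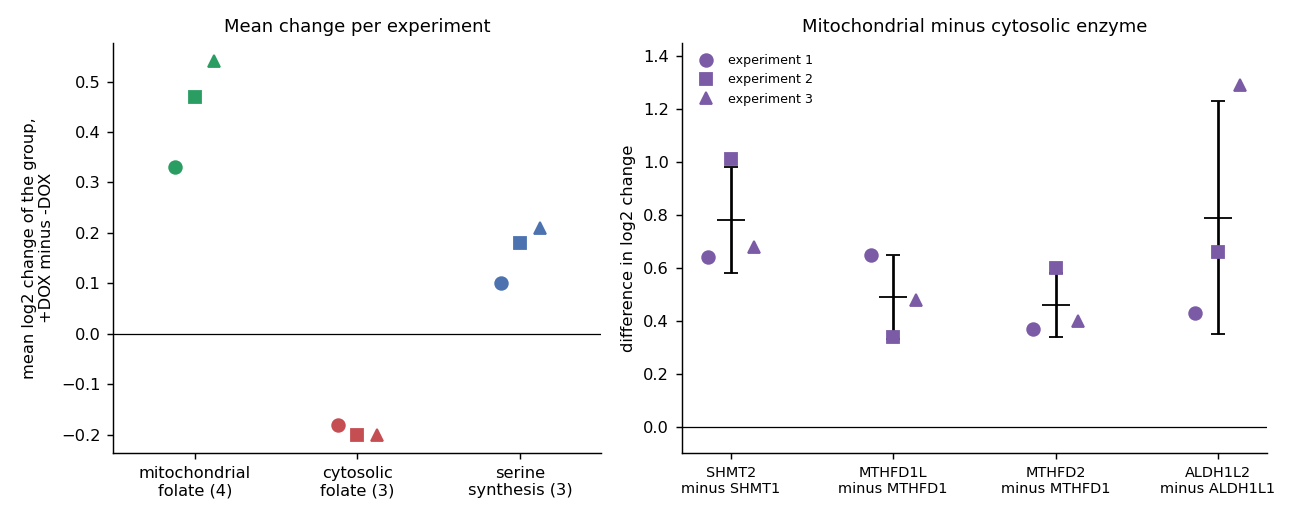
Left, mean log2 change (+DOX minus -DOX) of the mitochondrial folate, cytosolic folate and serine synthesis enzymes in each experiment, with the number of enzymes in brackets; right, difference in log2 change between a mitochondrial enzyme and its cytosolic counterpart, with bars for mean ± SD over 3 experiments. The mitochondrial means (0.33 to 0.54) lie above 0 and the cytosolic means (-0.20 to -0.18) below, and all 12 differences on the right are positive. Of the cytosolic enzymes SHMT1 alone passed, and ALDH1L1 changed sign between experiments.

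Promoter windows of the enzymes were searched because several moved together, and the stretches with a match are shown with the matched letters in capitals. RefSeq windows on GRCh38.p14, from 250 bases before to 50 after a start, were at hand for 7 of the 10 enzymes, and PSPH, SHMT2 and ALDH1L2 had no entry. The motifs searched on both strands were TGATGNAA, a core of the element bound by ATF4 with C/EBP proteins, TGACNNNGC, the core of the antioxidant response element, and CACGTG, the E-box bound by MYC. MTHFD1L held TGATGNAA, which 3.62% of all 35116 windows hold. The match lay 24 bases after the most upstream of the starts with a match and 90 and 129 bases before 2 others. MTHFD1L had 4 windows, not all with a match, whereas the shares are per window. It also held CACGTG, in 7.26% of all windows, as did MTHFD1, where the match began 15 bases before the start. MTHFD2 held TGACNNNGC on the minus strand, in 13.3% of all windows, beginning 6 bases after the start.
MTHFD1L, chr6:150866346-150866375, plus strand: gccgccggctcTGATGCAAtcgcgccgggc
MTHFD1L, chr6:150866321-150866350, plus strand: acgcccggctcCACGTGcgcagccggccgc
MTHFD1, chr14:64388327-64388356, plus strand: cagtccctaagCACGTGggttgggttgtcc
MTHFD2, chr2:74198610-74198639, plus strand: cttccctcccgGCGCAGTCAccggcgcggt

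CACGTG stood both in MTHFD1L, which rose, and in MTHFD1, which did not pass at -0.16. The window of SHMT1, the enzyme that fell, held none of the 3 motifs, nor did those of PHGDH, PSAT1 and ALDH1L1. No match overlapped a match to another motif. For comparison, the 100 bases before the start of SHMT1 are shown in full, in lower case as nothing matched.
SHMT1, chr17:18363551-18363650, minus strand: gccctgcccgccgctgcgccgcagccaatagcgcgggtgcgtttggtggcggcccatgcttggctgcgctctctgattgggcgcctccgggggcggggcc

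Of 20 genes listed under folate entry and recycling, 6 fell, 1 rose and 13 did not pass, with a median change of -0.14. Over all probe sets 6.63% fell and 6.14% rose. The list is broader than its name, as it holds sideroflexins and GGH, so the count is not one of folate entry alone. TYMS, the thymidylate synthase that consumes methylenetetrahydrofolate, measured 10.76, 10.47 and 10.44 in +DOX arrays and 11.37, 11.67 and 11.46 in -DOX arrays, and fell by 0.95 on the log2 scale (SE 0.12, limma adjusted p = 0.00344). FOLR1, a folate receptor, fell by 0.60 (adjusted p = 0.00644), GGH, which trims the glutamate tail of folates, by 0.68 (0.00606) and SFXN2, of the sideroflexin family, by 0.62 (0.0135, with 0.0618 without experiment 2 and 0.0918 without experiment 3). SLC46A1, a proton-coupled folate transporter, also fell, by 0.41 (0.0172). It missed the threshold without any 1 experiment (0.0607, 0.0841 and 0.079).

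The gene of that list that rose was SLC25A32, the carrier that brings folate into mitochondria, which is named because it stood alone. It measured 11.91, 12.12 and 12.20 in +DOX arrays and 11.65, 11.36 and 11.35 in -DOX arrays, with no overlap. Its change was 0.62 (SE 0.13, limma adjusted p = 0.0187), smallest in experiment 1 (0.25) and larger in experiments 2 and 3 (0.76 and 0.85), and the adjusted p was 0.0739 without experiment 2 and 0.115 without experiment 3. This gene, SLC46A1, MTHFD2L, KRT8, CD14, ATF4 and ASNS were picked after their values were seen. MTHFD2L, the mitochondrial relative of MTHFD2, differed by 0.50 and did not pass (adjusted p = 0.0917), with 0.0172 without experiment 1, where its difference was 0.02, 0.0325 without the dimmer probe sets and 0.047 with only probe sets that have a symbol.

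In the glycine cleavage system, which takes 1-carbon units from glycine in mitochondria, none of 4 genes passed, with AMT at 0.13 and GLDC at 0.07. Of 6 genes of purine ring synthesis, which draws on 10-formyltetrahydrofolate, ATIC alone passed, beside 12.8% of all probe sets in either direction. It rose by 0.37 (limma adjusted p = 0.0289), with values of 11.17, 11.43 and 11.30 in +DOX arrays and 10.90, 11.01 and 10.90 in -DOX arrays, and its call was lost without experiment 1, 2 or 3 (adjusted p = 0.0603, 0.155 and 0.117).

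Among 14 genes that use or break down serine and glycine 2 rose, 1 fell and 11 did not pass, beside 6.14% higher and 6.63% lower over all probe sets. CTH, which makes cysteine from the cystathionine built out of serine and homocysteine, measured 8.59, 9.59 and 9.71 in +DOX arrays and 7.68, 7.69 and 7.39 in -DOX arrays. It rose by 1.71 (SE 0.23, limma adjusted p = 0.00416), with changes of 0.92, 1.90 and 2.32 in experiments 1, 2 and 3, and did not pass with a trended and robust variance (adjusted p = 0.0533). ALAS1, the first enzyme of heme synthesis from glycine, rose by 0.43 (adjusted p = 0.0409), and SPTLC2, a subunit of the palmitoyltransferase that starts sphingolipids from serine, fell by 0.37 (0.0443). The call of ALAS1 was lost without experiment 2 (0.159) or 3 (0.192) or the pairing by experiment (0.144), and that of SPTLC2 without experiment 1 (0.065), 2 (0.261) or 3 (0.127) and with equal array medians (0.0762). None of 8 transporters of serine and glycine passed, with SLC6A9 at 0.29 (adjusted p = 0.0649) and SLC1A4 at 0.24 (0.129). SLC6A9 passed with a trended and robust variance (0.0409), without the dimmer part of the probe sets (0.0358) and with only probe sets that have a symbol (0.0463).

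**Figure D4:**
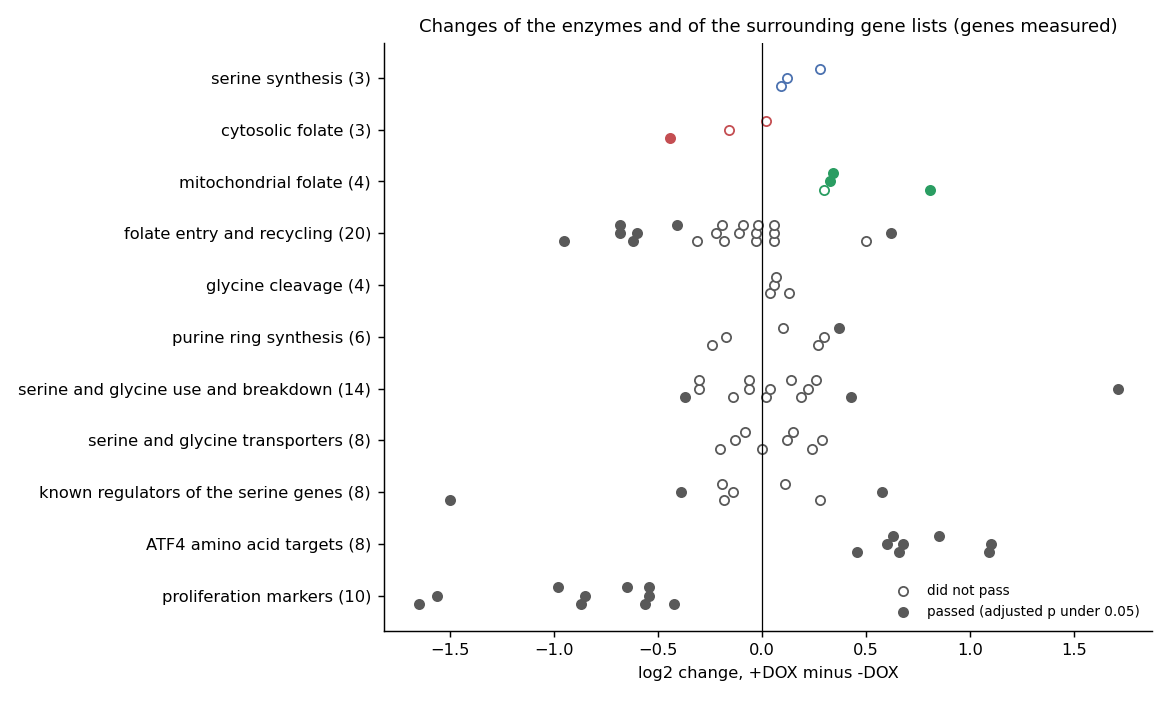
Log2 change (+DOX minus -DOX, horizontal axis) of every measured gene in the enzyme groups and in 8 surrounding lists, with the number of genes measured in brackets and filled points for adjusted p under 0.05. The 4 mitochondrial enzymes lie at 0.30 to 0.81, all 8 ATF4 targets at 0.46 to 1.10 and all 10 proliferation markers at -1.65 to -0.42. Enzymes and lists were chosen with earlier results of these data known.

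Known regulators of the serine genes went in both directions, with 1 called higher and 2 lower, beside 6.14% and 6.63% of all probe sets. Of 8, MYC rose by 0.58 (limma adjusted p = 0.00566), with 11.81, 11.64 and 11.86 in +DOX arrays and 11.18, 11.16 and 11.23 in -DOX arrays. MYCN fell by 1.5 (adjusted p = 0.001) and TP73, a relative of p53, by 0.39 (0.024, with 0.0564, 0.106 and 0.111 without experiment 1, 2 and 3). The ATF4 transcript itself did not pass, at -0.19 (adjusted p = 0.229).

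Amino acid stress genes known as ATF4 targets also rose. Of all probe sets 6.14% were called higher, and of the brighter part tested alone 15.3%. All 8 of a list chosen with earlier results of these data known were called higher. Given that choice, the count is a description only. The median change of the 8 was 0.67, with STC2 (1.09), TRIB3 (1.10), DDIT4 (0.85) and SESN2 (0.63) among them. ASNS, the asparagine synthetase, had values of 10.61, 10.74 and 10.70 in +DOX arrays and 10.37, 9.96 and 9.75 in -DOX arrays, and its change of 0.66 (adjusted p = 0.0198) lost its call without experiment 2 (0.0709) or 3 (0.118). As in ALDH1L2, the +DOX arrays of ASNS were close together and its -DOX arrays were highest in experiment 1. The list as a whole did not share this. Among the other targets named, DDIT4 did, whereas STC2 and TRIB3 were spread more widely in +DOX arrays (SD 0.28 and 0.14). SESN2 had its highest -DOX array in experiment 3 (8.49).

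Proliferation markers moved with doxycycline too. Of all probe sets 6.63% fell, and of the brighter part tested alone 13.8%. All 10 of a list also chosen with earlier results of these data known fell. Their median change was -0.75, led by CCNE2 (-1.65), RRM2 (-1.56), MKI67 (-0.98) and CDK1 (-0.87). Their summed level lay at log2 12.71 to 13.04 in +DOX and 13.53 to 13.73 in -DOX arrays. SHMT1 and TYMS, which serve thymidylate synthesis, were lower in the same arrays, and the part of proliferation in their falls was not tested.

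Across the experiments the signed change was higher in experiment 3 than in experiment 1 for 8 of the 10 enzymes, beside 43.5% of all probe sets. Among these are SHMT1 and MTHFD1, which were lower by more in experiment 1. The signed change was higher in experiment 2 than in experiment 1 for 7 of the 10, beside 51.5% of all probe sets. These shares mix probe sets that were higher and lower with doxycycline. Along the first principal component, +DOX and -DOX arrays scored 12.16 and -26.78 in experiment 1. The scores were 30.2 and -22.05 in experiment 2 and 29.68 and -23.21 in experiment 3, so the groups lay nearer in experiment 1. The counts are therefore not read as a trait of the enzymes. Leaving out experiment 1 gave a mean of 0.70 for the difference between the compartments, against 0.62 and 0.58 without experiments 2 and 3.

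**Figure D5:**
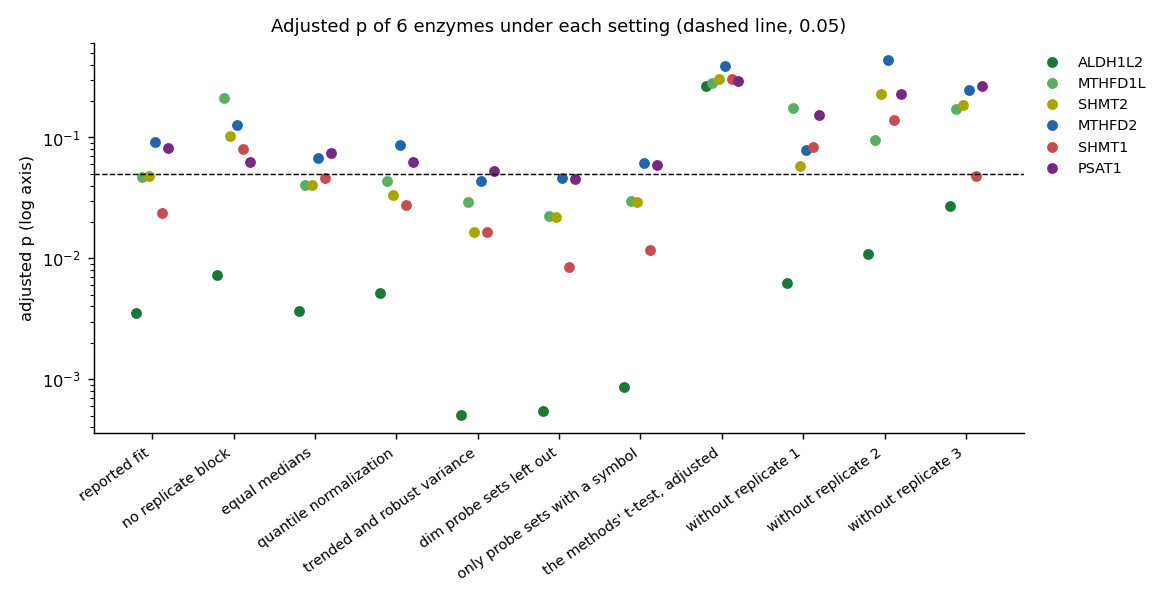
Adjusted p (log axis) of the 6 enzymes with the smallest p in the reported fit and under each alternative, with a dashed line at 0.05. ALDH1L2 lies under the line except with the adjusted test of the study's methods, whereas MTHFD1L and SHMT2 lie just under it in the reported fit (0.0469 and 0.0476) and above it without the replicate block or without any 1 replicate.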

How the data were processed

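RNA of 6 cultures was measured on Affymetrix gene-level arrays. The deposited values are on a log2 scale and were made by the authors with RMA (background correction, normalization across arrays, summary per probe set) in R 2.11.1, per the submitters' processing notes and the design text of the series. Probe counts and NCBI build 36 positions are those of the authors' deposited workbook, per the file headers. Of 33297 probe sets, 4428 controls and 843 others without values were left out, and the remaining 28026 were all tested, dim ones included.

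Treated and untreated arrays were compared with limma 3.58.1 under R 4.3.3 (lmFit, eBayes), with the experiment as a term, as the design text describes a paired test, and Benjamini-Hochberg adjustment over all 28026 probe sets. Deviations from the group means correlated at 0.482, 0.165 and 0.0993 within experiments 1, 2 and 3. Precision is limited by there being 6 arrays. The procedure was tested on simulated data with independent noise and added changes larger than those of SHMT2 and MTHFD1L. That test therefore does not bear on calls near the threshold. The file marks no intron controls, so the filter on dim probe sets used the median. Of genes with several probe sets, the brightest stood for the gene, and 3 listed symbols were matched through older symbols. The members and lists were chosen with earlier results of these data known. From each surrounding list the genes named were the 4 called genes of lowest p, or the 2 of lowest p where the list had no call, besides those the text names as picked later. Values of the targeted gene and of 1 listed gene are not reported here. Promoter sequences are from RefSeq (GRCh38.p14).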

Additional observations from a re-analysis of the deposited data

How the results depend on the processing

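Without the replicate block (no pairing by experiment) 1 enzyme was called higher and 0 lower, beside 3.96% (1109) and 4.64% of all probe sets. SHMT1 (-0.44, adjusted p = 0.0803), SHMT2 (0.34, 0.103) and MTHFD1L (0.33, 0.214) were then not called. With the dimmer part of the probe sets left out, which leaves fewer tests and drops ALDH1L1, 5 of 9 enzymes were called higher (15.3% of the probe sets kept), PSAT1 (0.28, 0.0452) and MTHFD2 (0.30, 0.0462) among them, and MTHFD2 also passed with a trended and robust variance (0.30, 0.0433). The methods' t-test called 0 probe sets, enzymes or listed genes in either direction after adjustment, with 4449 probe sets and 5 of the 10 enzymes at an unadjusted p under 0.05, and 1165 and 0 at its 1% level; adjusted p were 0.303 for SHMT1 (-0.44), 0.306 for SHMT2 (0.34), 0.282 for MTHFD1L (0.33) and 0.265 for ALDH1L2 (0.81).

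With 1 experiment left out at a time, which leaves 4 arrays, calls ranged over all probe sets between 456 and 1416 higher and between 899 and 1437 lower (1.63% to 5.05% and 3.21% to 5.13%), over the enzymes stood at 1 higher and between 0 and 1 lower, and over the other lists between 6 and 13 higher and between 9 and 15 lower (13 and 19 with all experiments). The lowest counts of rises came without experiment 3. Changes ranged between -0.52 and -0.36 for SHMT1, between 0.30 and 0.42 for SHMT2, between 0.30 and 0.39 for MTHFD1L, and between -0.06 and 0.15 for ALDH1L1, which turned sign without experiment 1 (-0.06) or 2 (-0.03). Beyond the constructions named, the cause of these differences was not tested. Equal array medians and quantile normalization changed no call of an enzyme, and the difference between the compartments lay between 0.58 and 0.70 over its alternatives. Each enzyme had 1 probe set, so averaging probe sets gave nothing to compare. With 250 bases before the start alone, MTHFD2 held no match. Signal limits ALDH1L1 most.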
